A study of Mus musculus with 8 samples.

Results

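The region described here is a window of 370 kb on mouse chromosome 1, from 39 to 39.37 Mb (mm10), that holds the clock gene Npas2 and the flank upstream of it. Its members are all chromatin loops with at least 1 anchor overlapping that window in 6 libraries of in-situ ChIA-PET, and the window was chosen on loop counts of these same libraries. They number 212 of 277517 loops: 126 of 57865 in the ZT10 knock-in library, and 17 of 40597 in the ZT22 knock-in library. The 2 WT libraries contribute 19 of 31033 and 27 of 58102 (replicates 1 and 2), the 2 ΔhIDR libraries 10 of 47939 and 13 of 41981. Levels in the window and their differences between libraries are therefore descriptions, and support nothing by themselves.

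In-situ ChIA-PET fixes liver nuclei, cuts their DNA with AluI, religates the cut ends that lie close together and pulls down the fragments bound by a chosen protein. A loop is a pair of anchor intervals joined by paired-end tags (PETs), the sequenced read pairs with 1 end in each anchor. Here the pull-down used the HA tag of 3HA-tagged REV-ERBα. The knock-in mice were REV-ERBa3HA/3HA, so that the tag sits on their own protein, and received no virus; 1 library was made at zeitgeber time (ZT) 10 and 1 at ZT22. The other 4 libraries came from REV-ERBaf/fREV-ERBbf/f mice at ZT10. All of these had received AAV8-TBG-Cre, together with either AAV8-TBG-3HA-REV-ERBa-WT (2 libraries, called WT) or AAV8-TBG-3HA-REV-ERBa-delhIDR (2 libraries, called ΔhIDR), which by its name and the series title lacks an intrinsically disordered region. TBG is a hepatocyte promoter, so Cre and the tagged construct are driven in hepatocytes, and the floxed alleles of other liver cells need not be deleted. The comparisons ask how loops at Npas2 differ by time of day and between the full-length protein and the form without that region.

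NPAS2 is a close relative of CLOCK. Like CLOCK it pairs with BMAL1 and activates genes through E-boxes. REV-ERBα is a nuclear receptor without an activation domain that binds response elements shared with the ROR receptors and recruits the NCoR corepressor with HDAC3. In liver it represses Bmal1, Npas2 and other clock genes during the light phase, when its own level peaks, and its binding is low late in the night.

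The sequences of 3 annotated features under the anchors are given first: the promoter at the centre of the loops, and the genes under the farthest and the nearest of the 7 flank anchors described below. The other 5 flank anchors overlap no annotated gene, and their sequences are not shown. They come from RefSeq's tables for GRCm38.p6, whose chromosome coordinates are those of mm10. Npas2 spans chr1:39193702-39363240 on the plus strand, and its promoter entry, chr1:39194022-39194321 on the plus strand, runs from 250 bases before to 50 bases after the first base used here, 39194272. That base lies downstream of the annotated start of the gene, so the whole entry lies inside the annotated span. All distances below, and the term first base of Npas2, refer to 39194272. Gm35222 is a long noncoding RNA gene on the minus strand that lies under the most distant of the strong anchors, and its entry is chr1:39027308-39027607 on the minus strand. The third sequence is the mature microRNA of Mir6349, a gene under the flank anchor nearest to the promoter (chr1:39186908-39186929, minus strand). In the 2 promoters, capitals mark AGCT, the site that AluI cuts; in the microRNA they mark the seed, bases 2 to 8.
Npas2 promoter: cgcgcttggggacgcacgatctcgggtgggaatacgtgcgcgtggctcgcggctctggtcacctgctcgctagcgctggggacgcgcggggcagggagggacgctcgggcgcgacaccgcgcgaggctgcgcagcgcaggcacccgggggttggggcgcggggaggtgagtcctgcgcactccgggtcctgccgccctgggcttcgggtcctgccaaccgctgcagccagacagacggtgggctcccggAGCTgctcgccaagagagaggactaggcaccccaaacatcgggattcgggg
Gm35222 promoter: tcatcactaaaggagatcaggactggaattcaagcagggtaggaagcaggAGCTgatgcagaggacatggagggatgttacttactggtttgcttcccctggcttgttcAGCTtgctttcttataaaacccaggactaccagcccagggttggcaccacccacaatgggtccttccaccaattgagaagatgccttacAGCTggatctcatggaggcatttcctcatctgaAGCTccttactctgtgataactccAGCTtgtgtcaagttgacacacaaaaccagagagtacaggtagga
mmu-miR-6349: uGGAAUGUgggaggggcaugcg

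The 2 promoters differ in composition. The Npas2 entry is 72.7% GC and holds 37 CpG dinucleotides, more than 94.4% of the promoters in the table, whose median is 7. The Gm35222 entry is 48.7% GC with 0 CpG. Npas2 has 1 AluI site in these 300 bases, at base 250, and Gm35222 has 5, against a median of 1. Motifs were searched on both strands as exact letters: AGGTCA, the half-site of REV-ERB and ROR response elements, TAGGTCA, which contains it, the E-box CACGTG and the D-box TTATGTAA. These are found in 16.3%, 2.61%, 7.15% and 0.938% of 32851 promoters of the same length. None of the 4 strings occurs in either sequence, which says only that these letters are absent from these windows.

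At ZT10 the knock-in library placed Npas2 in a dense set of loops between its promoter and a series of anchors spread over the flank. Loops of the window held 1036 PETs (95% Poisson interval 974 to 1101), of which 970 lay in 109 loops with both anchors inside the window. All listed loops of that library held 320427 PETs, so the window had 32.3 of every 10000. Among 6915 windows of the same length that tile the genome, its rank was 11, and its PETs were 86.3 times the median window. Intervals here and below cover counting error only, and may be too narrow if PETs are copies of 1 ligation product.

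The limits of the window fall in stretches with few loops. At the lower limit the nearest loops of the ZT10 library outside it had 3 PETs each, with inner anchors ending at 38991284 and 38862340, while the first ones inside had 6 and 15. At the upper limit the nearest loops outside had 3 and 4 PETs, starting at 39414053 and 39424797, and the last ones inside had 4 and 3.

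**Figure D1:**
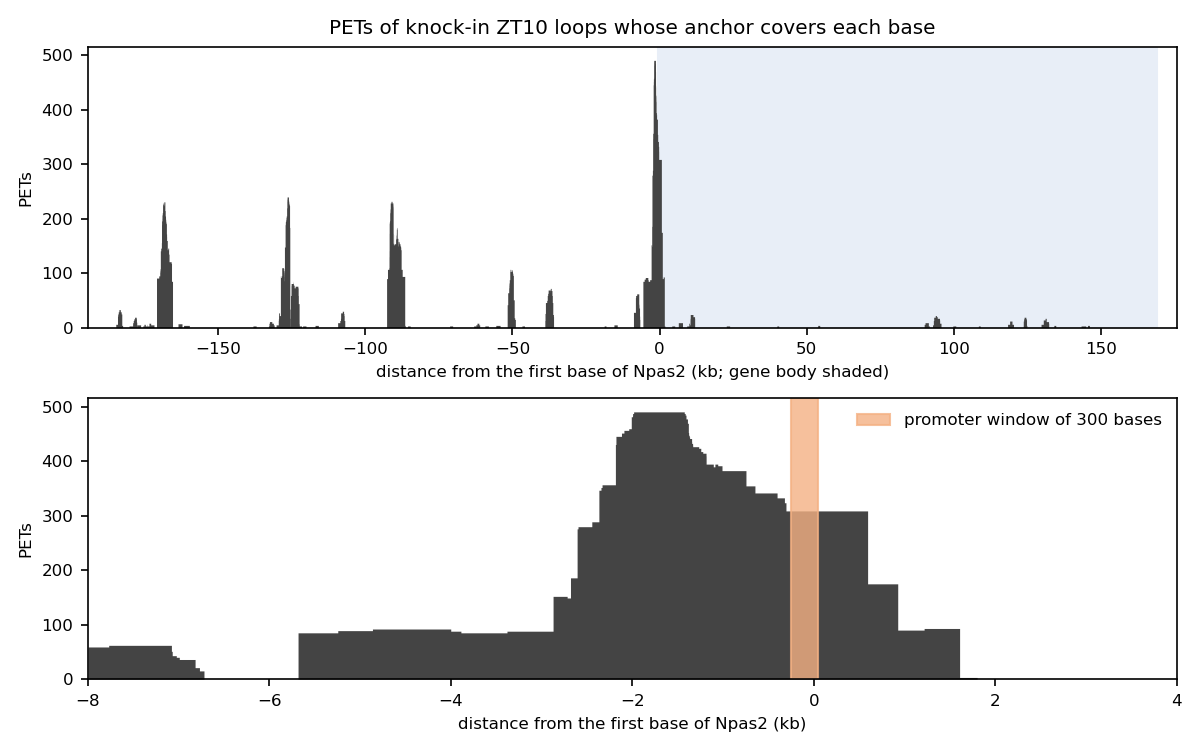
PETs of knock-in ZT10 loops whose anchor covers each base (vertical axis), against distance in kb from the first base of Npas2; the gene body is shaded in the upper panel, and the lower panel enlarges the promoter with the 300 bases of its printed sequence marked. Sharp peaks stand over the flank and 1 over the promoter, and the highest coverage, 491 PETs, lies 1.43 to 1.99 kb upstream of the first base.

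Overlapping ZT10 anchors were merged into 57 intervals, of which 44 lie in the window and 34 take part in 1 loop. The interval over the start of the gene, chr1:39188588-39196072, is called the promoter anchor. It joined 44 loops with 509 PETs to 37 partner intervals. Of 51940 anchors merged in the same way over the whole ZT10 library, where the median anchor has 1 loop and 3 PETs, it stood at rank 15 by loops and 12 by PETs.

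Most loops of the promoter anchor covered a shared place outside the printed sequence. The stretch chr1:39192287-39192844, was covered by 39 of the 44 loops and 491 of the 509 PETs. It lies 1.43 to 1.99 kb upstream of the first base used here, and nearer to the annotated start at 39193702, which it also precedes. The 300 bases printed above were covered by 6 loops, which held 309 PETs. Among these, the loops of 90, 85, 64, 37 and 28 PETs have wide promoter-side anchors that cover the shared place as well. Such loops do not tell the shared place from the printed bases. The sequence under the shared place is not shown, because the reference used here covers promoters only.

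Partners of the promoter anchor lay mainly upstream. Loops to the flank numbered 21 and held 396 PETs, 77.8% of its total. Loops into the gene body numbered 13 with 71 PETs (14.0%), and loops out of the window 10 with 42 PETs (8.25%). Between the end of Npas2 and the end of the window there was no partner.

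Within the flank, 7 anchors joined 9 or more loops each, a threshold chosen after the values were seen. They are named by the distance of their centre from the first base of Npas2. The -168 kb anchor (chr1:39023301-39028727), which covers Gm35222, had 24 loops and 250 PETs. The -128 kb anchor (chr1:39063930-39068718) had 30 loops and 279 PETs, and the neighbouring -124 kb anchor (chr1:39068728-39072572) 9 loops and 91 PETs. The -89.6 kb anchor (chr1:39101493-39107815) had 28 loops and 310 PETs, the most PETs in the flank.

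The other 3 lie closer to the gene and were weaker. The -50.4 kb anchor (chr1:39142473-39145247) had 12 loops and 110 PETs. The -37.5 kb anchor (chr1:39155271-39158227) had 9 loops and 76 PETs, and the -7.80 kb anchor (chr1:39185400-39187550), which covers Mir6349, 9 loops and 62 PETs. In the RefSeq gene table no gene overlaps the -128, -124, -89.6, -50.4 and -37.5 kb anchors. By loops, the -128, -89.6 and -168 kb anchors ranked 63, 79 and 137 among all 51940 anchors, so the promoter and 3 flank anchors of 1 gene all stood in the top 137.

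The strongest loops ran from the promoter to those anchors. The loop to -89.6 kb had 90 PETs (72.4 to 111), the one to -168 kb 85 (67.9 to 105), and the one to -128 kb 64 (49.3 to 81.7). The loop spanning 166 kb and the loop spanning 89.2 kb have overlapping intervals. How counts vary with distance was not tested, nor was the part of anchor width, which differs between these loops. Among the 15231 ZT10 loops spanning 50 to 200 kb, whose median is 3 PETs, these ranked 16, 15 and 29 in the order -168, -89.6 and -128 kb.

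Summed over all loops of a pair of anchors, the promoter was joined to 6 of the 7 flank anchors. PETs numbered 97 to -89.6 kb, 85 to -168 kb, 69 to -128 kb, 37 to -124 kb, 28 to -50.4 kb and 16 to -37.5 kb. The -7.80 kb anchor, the nearest, had no listed loop with the promoter anchor. Their centres lie 5.86 kb apart, and no loop listed in any of the 6 libraries has anchor centres closer than 7.50 kb. That floor holds for anchors of single loops, and the outer parts of these merged intervals lie beyond it. The lists thus put no limit on PETs between their nearer parts only. A weaker anchor at -183.7 kb, with 5 loops in all, had 15 PETs to the promoter.

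Many of the PETs joined places that lie outside the gene and its promoter. Loops of the promoter anchor held 49.1% of the window's PETs (95% Wilson interval 46.1 to 52.2), loops of the gene body without the promoter 5.89% (4.61 to 7.49), and loops touching neither 45.0% (42.0 to 48.0). That last class comprised 66 loops and 466 PETs. Of these, 61 loops with 448 PETs, 43.2% of the window (40.3 to 46.3), had both ends in the flank, and 5 loops with 18 PETs ran from the flank to places outside the window.

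Most of the 7 flank anchors were joined to one another. Of their 21 pairs, 20 have centres farther apart than the shortest listed span. Of these, 19 were joined, with a median of 14 PETs and a range of 4 to 62. The pair -128 and -89.6 kb had 62 PETs, -168 and -128 kb 45, -124 and -89.6 kb 32, and -168 and -89.6 kb 30. The -7.80 kb anchor was joined to all 6 other flank anchors, with 17 PETs to -89.6 kb, 14 to -128 kb and 11 to -168 kb.

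With the promoter counted, 25 of 28 pairs among the 8 anchors were joined, or 25 of the 26 whose centres lie farther apart than the shortest listed span. The -128 kb anchor ends at 39068718 and the -124 kb anchor starts at 39068728. Both enter as separate anchors, and pairs were not counted with them merged into 1. The 25 joined pairs held 45 loops and 676 PETs, 65.3% of the window. The pair beyond that span that was not listed is -124 with -37.5 kb. The other pairs not listed are -128 with -124 kb (centres 4.33 kb apart) and -7.80 kb with the promoter. Their centres are closer than those of any listed loop, though their outer parts are not. The share of joined pairs depends on the threshold. It was 55.1% of pairs with anchors of 5 or more loops and 100% with anchors of 12 or more. A ChIA-PET library sums many cells, so it does not say whether these pairs lay together in the same nucleus.

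**Figure D2:**
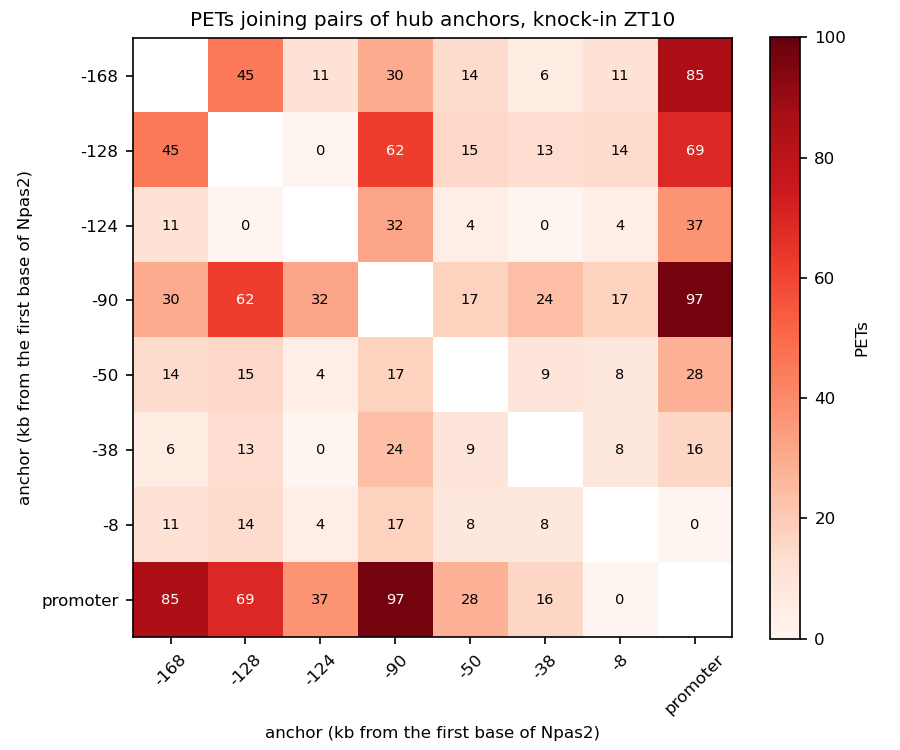
PETs joining each pair of the 8 anchors with 9 or more loops in the knock-in ZT10 library; rows and columns are anchors by their distance in kb from the first base of Npas2, and colour and number give PETs. The promoter row has the highest counts, up to 97, and 19 of the 21 pairs among the other 7 anchors are filled. Of the 3 pairs at 0, the neighbours -128 with -124 kb and -7.80 kb with the promoter have centres closer than those of any listed loop.

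Inside the gene body the anchors were more numerous than strong. An anchor 10.6 kb into the gene had 6 loops with 27 PETs, 15 of them to the promoter. Others stood at 94.2 kb (5 loops, 25 PETs), 124 kb (4 loops, 19 PETs) and 131 kb (3 loops, 17 PETs). All of these counts lie below that of the weakest of the 7 flank anchors, at 62.

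Loops that left the window reached a small set of genes at ZT10. They numbered 17 with 66 PETs, and the median distance of their partners from the edge of the window was 0.757 Mb. Of these loops, 8 spanned over 1 Mb. The strongest joined the promoter to Map4k4, a kinase gene 709 kb downstream, with 9 PETs, and a second loop of 3 PETs reached Map4k4 from 94.2 kb inside Npas2. Pdcl3, 207 kb upstream of the first base, was joined to the promoter by 6 PETs and to the -89.6 kb anchor by 3.

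Aff3, which encodes a nuclear protein of the AF4 family, was reached by 4 of these loops. Its anchor 952 kb upstream, which also covers the noncoding gene Gm16150, was joined to the promoter by 5 PETs, to -128 kb by 5 and to 124 kb inside Npas2 by 3. A separate Aff3 anchor had 4 PETs to the promoter. Of the 17 loops that left the window, 10 began at the promoter anchor, 5 in the flank and 2 inside the gene.

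At ZT22 little of this was listed. The window held 54 PETs (40.6 to 70.5), or 4.07 per 10000, against 1036 and 32.3 at ZT10. The ratio of the 2 shares was 7.95 (95% Clopper-Pearson interval 6.04 to 10.7), a log2 ratio of 2.99 (2.60 to 3.41), from 1 library at each time and so without a replicate check. Of 5323 windows with 30 or more PETs over both libraries, 4.64% had a ratio of 4 or more, 42 had a larger ratio than the Npas2 window, and the median ratio was 0.252. The window was chosen with this contrast known.

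The size of that ratio depends on which loops and which scale are used. It was 35.2 when the median ratio of all windows served as the scale. Over the PETs of all listed loops, it was 25.1 for loops with both anchors inside the window. On that same scale it was 30.4 for loops whose anchors are both at least 700 bp wide. Such wide-anchor loops made up 71.5% of loops at ZT10 and 11.7% at ZT22. Per 10000 PETs of wide-anchor loops, the window held 35.6 at ZT10 and 7.95 at ZT22, closer together than its shares of all listed PETs. Of the 17 ZT22 loops, 12 left the window, to places as far as 155 Mb away. The median span of all 17 was 3441 kb, against 81.0 kb for the window's loops at ZT10. Over all loops of each library it was 524 kb at ZT22 and 40.1 kb at ZT10, so spans were longer at ZT22 in general.

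The ZT22 loops on the ZT10 anchors were 2, and both belonged to the promoter. The promoter was joined to -89.6 kb by 4 PETs and to -128 kb by 3. Both promoter-side intervals covered the place shared by most ZT10 loops of the promoter. Those pairs had 97 and 69 PETs at ZT10. The -168 kb anchor, second in PETs with the promoter at ZT10, had no listed loop at ZT22. Of the 126 ZT10 loops 2 were also listed at ZT22, 1.59% (0.436 to 5.60), against 0.970% of all ZT10 loops.

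**Figure D3:**
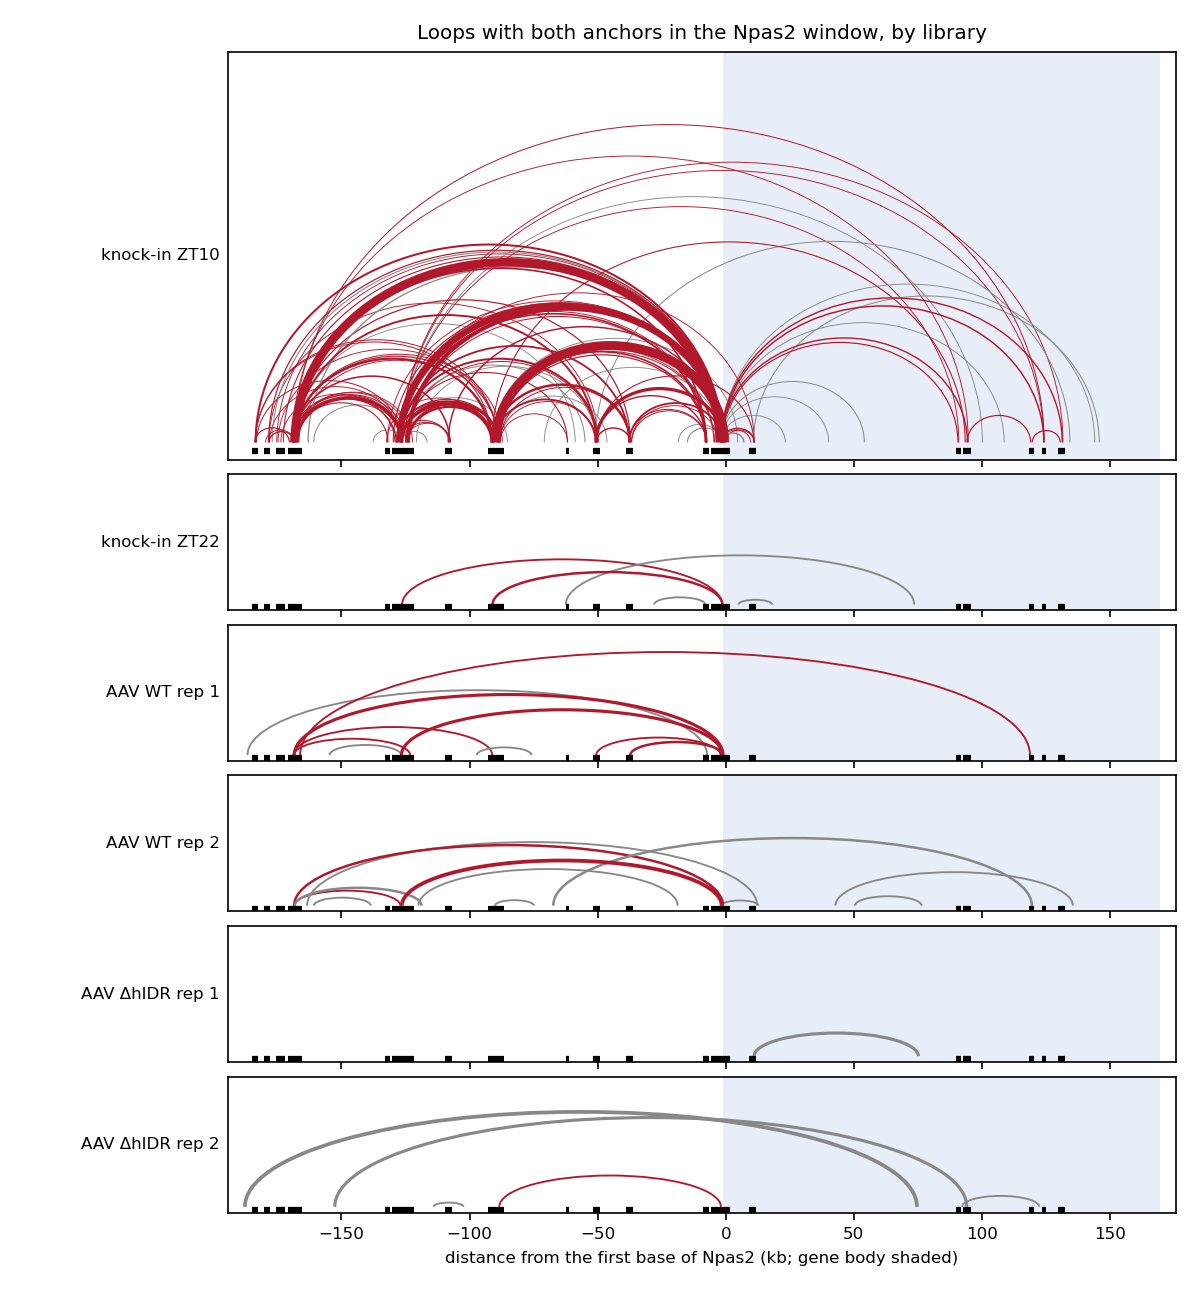
Loops with both anchors in the window, 1 panel per library, drawn as arcs over distance in kb from the first base of Npas2 (gene body shaded); arc width grows with PETs, on a larger scale in the lower 5 panels, red arcs join 2 of the ZT10 anchors with 2 or more loops (black bars) and grey arcs do not. The 109 arcs at ZT10 fan out from the promoter over the flank, and red arcs number 2 at ZT22, 7 in WT replicate 1, 3 in WT replicate 2, 0 in ΔhIDR replicate 1 and 1 in ΔhIDR replicate 2.

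The 4 AAV libraries, all at ZT10, listed far fewer loops here than the knock-in at the same time. Wide-anchor loops are also rarer in them over the genome, as given below. Per 10000 PETs of wide-anchor loops, the window held 35.6 in the knock-in at ZT10 and 44.1 and 26.4 in WT. In ΔhIDR it held 0 and 30.9, the last from 3 PETs. PETs of the window numbered 62 (47.5 to 79.5) in WT replicate 1 and 94 (76.0 to 115) in WT replicate 2, and 39 (27.7 to 53.3) and 49 (36.3 to 64.8) in ΔhIDR replicates 1 and 2. Per 10000 listed PETs these were 5.95 and 4.61 in WT and 2.19 and 3.05 in ΔhIDR. Both WT shares lay above both ΔhIDR shares, as they did in 15.5% of the 6754 windows tested. In loops of 4 or more PETs the counts were 14 and 40 in WT and 24 and 28 in ΔhIDR, so that WT replicate 1 had the lowest count; per 10000 PETs of such loops they were 4.22 and 4.72 against 2.65 and 3.20. The window ranked 26 and 175 of 6915 in the WT libraries, and 3911 and 1948 in the ΔhIDR libraries.

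In edgeR's quasi-likelihood test over all windows, the Npas2 window had a log2 difference, WT minus ΔhIDR, of 1.02 (SE 0.38), with an unadjusted p of 0.0125 and an adjusted p of 0.998. It did not pass. By p it stood at rank 46 of 6754, and 231 windows had an unadjusted p under 0.05. The test called 1 window, 0.0148% of those tested, which lies on chromosome 11, with PETs of 952 and 945 (WT) against 184 and 117 (ΔhIDR). The labels do not say whether 2 replicates are 2 animals, and p-values thus reflect only library-to-library spread, which could be technical.

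**Figure D4:**
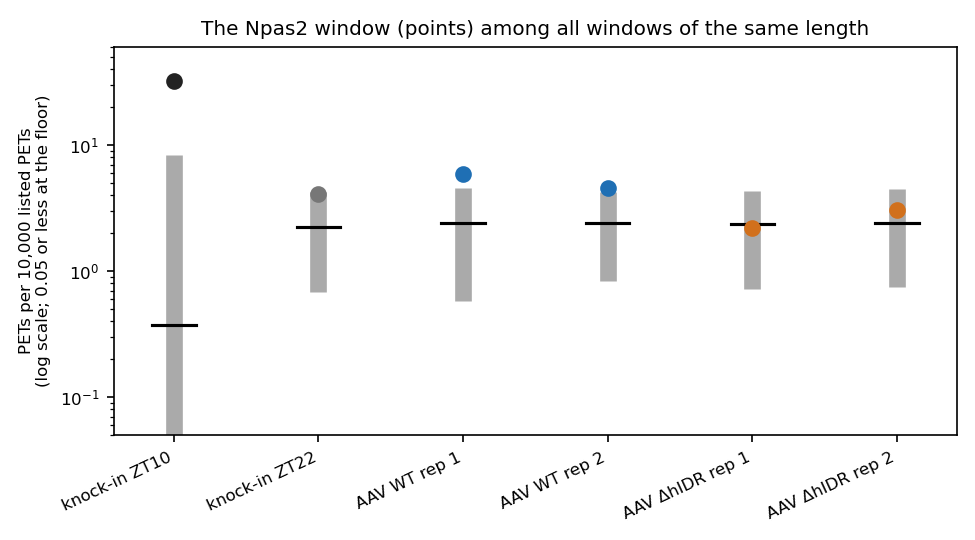
PETs per 10000 listed PETs (log scale) of the Npas2 window (points) in each library, with the median (black line) and the 5th to 95th percentile (grey bar) of all 6915 windows of the same length. The point lies above the grey bar at ZT10 and in both WT libraries, and within it at ZT22 and in both ΔhIDR libraries.

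The WT libraries listed a few loops on the ZT10 anchors. WT replicate 1 joined the promoter to -168 kb with 5 PETs, to -128 kb with 5, to -37.5 kb with 4 and to -50.4 kb with 3. It also joined -168 kb to -124 kb and to -89.6 kb with 3 PETs each, 2 pairs that do not touch the gene. A further loop of 3 PETs joined -168 kb to an anchor 119 kb inside Npas2, a pair that ZT10 does not list.

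WT replicate 2 had 3 loops on these anchors. It joined the promoter to -128 kb with 6 PETs and to -168 kb with 4, and -168 kb to -128 kb with 3. Both WT replicates therefore listed the loops from the promoter to -168 and to -128 kb. Neither listed the pair of the promoter and -89.6 kb, which had the most PETs at ZT10.

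In the ΔhIDR libraries, replicate 1 listed no loop that joined 2 of these anchors. Replicate 2 listed 1, from the promoter to -89.6 kb, with 3 PETs. Neither listed the promoter with -168 or -128 kb. The lowest listed count is 3 PETs, and whether every loop of 3 or more was listed is not known. How many ZT10 loops elsewhere were listed in both WT libraries and in neither ΔhIDR library was not counted. The anchors were named after their values were seen, so these loops by themselves do not set the groups apart. The only promoter loop of ΔhIDR replicate 1, with 4 PETs, led to a place 2.66 Mb away.

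Summed over loops joining 2 ZT10 anchors, PETs numbered 26 in WT replicate 1, 13 in WT replicate 2, 0 in ΔhIDR replicate 1 and 3 in ΔhIDR replicate 2. Per 10000 listed PETs they were 2.50 and 0.637 in WT, 0 and 0.187 in ΔhIDR, and 0.528 at ZT22. The WT values lie above the ΔhIDR values, and the 2 WT values differ from each other by more than ZT22 differs from WT replicate 2. The remaining loops of the window held 36 and 81 PETs in WT, or 3.46 and 3.97 per 10000. In ΔhIDR they held 39 and 46, or 2.19 and 2.86, so that WT was the higher group in these loops too. How often other windows show either order was not counted. For all loops of a window, both WT shares lay above both ΔhIDR shares in 15.5% of windows. A count for loops that match a ZT10 loop at both anchors is given below.

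**Figure D5:**
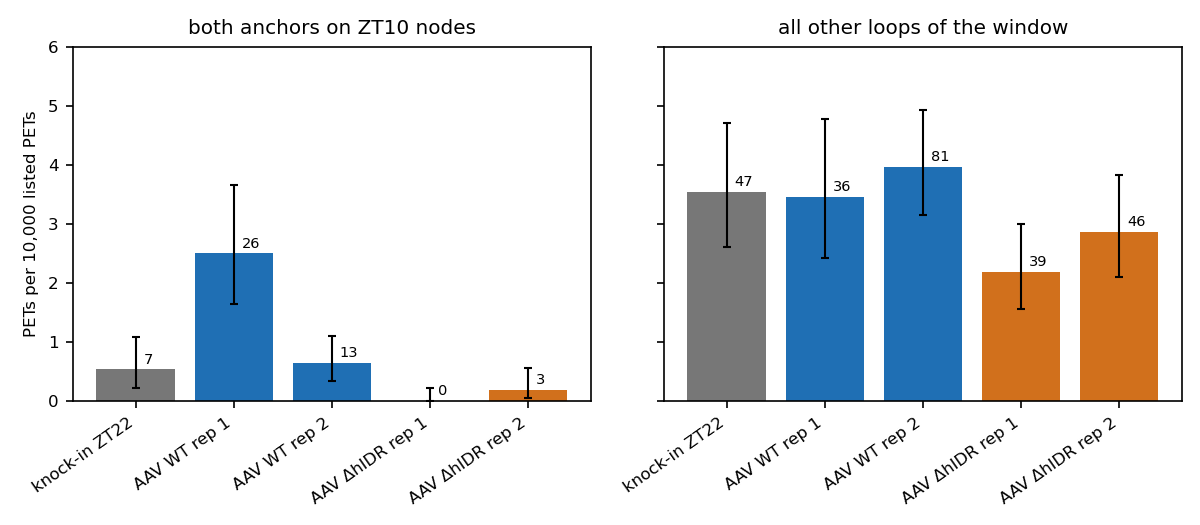
PETs per 10000 listed PETs in loops of the window that join 2 ZT10 anchors (left) and in its other loops (right), for the 5 libraries other than knock-in ZT10; bars give the value of 1 library, numbers the PETs, and error bars the 95% Poisson interval. On the left the 2 WT bars, of 26 and 13 PETs, stand above the ΔhIDR bars, of 0 and 3. On the right the WT bars, of 36 and 81 PETs, also stand above the ΔhIDR bars, of 39 and 46, by less in proportion. The share of other windows with either order was not counted.

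The window was also divided by position. Loops with both ends between the start of the window and the end of the promoter anchor held 32 and 26 PETs in WT and 0 and 6 in ΔhIDR, against 844 in the ZT10 knock-in and 10 at ZT22. Loops that touched the gene body beyond the promoter anchor held 12 and 35 PETs in WT and 26 and 36 in ΔhIDR, or 1.15 and 1.72 against 1.46 and 2.24 per 10000. The remaining loops, which ran from the flank or promoter to places outside the window or lay beyond the gene, held 18 and 33 PETs in WT and 13 and 7 in ΔhIDR, or 1.73 and 1.62 against 0.729 and 0.436 per 10000. Per 10000 listed PETs, WT lay above ΔhIDR without overlap in the flank and in these remaining loops, and the groups overlapped over the gene body. How often parts of other windows show that order was not counted. For whole windows it held in 15.5%, so the order by itself does not mark the flank as different.

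Of the 126 ZT10 loops of the window, WT replicate 1 also listed 7, or 5.56% (2.72 to 11.0), and WT replicate 2 listed 3, or 2.38% (0.813 to 6.77). ΔhIDR replicate 1 listed 0, which allows up to 2.96%, and ΔhIDR replicate 2 listed 1, or 0.794% (0.140 to 4.36). Over all 57865 ZT10 loops the same shares were 0.297% and 0.358% in WT, and 0.617% and 0.266% in ΔhIDR. WT libraries thus listed ZT10 loops of this window more often than ZT10 loops in general, a comparison for which the window was chosen. ΔhIDR replicate 2 also did, from 1 loop, and ΔhIDR replicate 1 did not. ZT10 loops of the window had a mean of 8.22 PETs, against 5.54 over all ZT10 loops. The part of loop strength in these shares was not tested.

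Counted as PETs of loops that match a ZT10 loop at both anchors, the window held 23 and 13 in WT and 0 and 3 in ΔhIDR. Both WT libraries stood above both ΔhIDR libraries in 3.86% of the 570 windows with such PETs in any AAV library, 22 windows in all, and the reverse held in 30. In 2 windows both WT libraries had 13 or more. Over the genome, such loops made up 1.22% and 0.575% of listed PETs in WT and 0.730% and 0.361% in ΔhIDR.

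The width of anchors moved with these results. Loops whose anchors are both at least 700 bp wide made up 71.5% of all loops at ZT10 and 11.7% at ZT22. They made up 5.89% and 3.49% in WT, and 1.61% and 0.669% in ΔhIDR. Of the 13 loops that join 2 ZT10 anchors in the 5 other libraries, 12 were of this kind, against 6 of the other 73 loops of the window.

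Scaled to the PETs of wide-anchor loops, the groups were no longer apart. Loops joining 2 ZT10 anchors then held 39.6 and 18.1 PETs per 10000 in WT and 0 and 30.9 in ΔhIDR, the last from 3 PETs among 971. The part of anchor width in the difference between WT and ΔhIDR was not tested.

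Among 20 core clock genes, with loops counted within 5 kb of the gene body, Npas2 had the most PETs at ZT10, 570. Next came Rora, a nuclear receptor that activates through the elements REV-ERBα binds, with 434, Hlf, a PAR bZIP factor of clock output, with 325, and Nfil3, a repressor at D-boxes, with 321. These sums grow with the length of a gene and are not compared per length. All 20 genes had PETs at ZT10, with Clock, Per3 and Nr1d2 at 3 each, the lowest count a list can hold. At ZT22 17 had PETs, and the WT libraries listed 12 and 15 of them, the ΔhIDR libraries 16 each. The share of all genes listed in each library was not counted, so these counts do not set clock genes apart.

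Counted in this way, Npas2 had 32 PETs at ZT22, while WT libraries gave 35 and 51 and ΔhIDR libraries 30 and 39. For the noncoding gene Gm35222 at -168 kb, loops of the window held 265 PETs at ZT10 and 0 at ZT22; the WT libraries gave 14 and 17 and both ΔhIDR libraries 0. For Mir6349, whose 5 kb reach into the promoter anchor, they held 429 at ZT10 and 3 at ZT22, with WT at 9 and 6 and ΔhIDR at 0 and 3. Gm35222 was thus listed in both WT libraries and in neither ΔhIDR library, and Npas2 was listed in all 6. The share of other genes with the pattern of Gm35222 was not counted.

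The neighbours of the window gave low counts in its loops outside the ZT10 knock-in. Aff3 had 17 PETs with the window at ZT10 and 7 in WT replicate 2, and Pdcl3 had 9 at ZT10, 7 at ZT22 and 3 in WT replicate 1. Tbc1d8, downstream of Npas2, had 3 and 6 in WT, and Cnot11 had 5 in ΔhIDR replicate 1. Chst10, Gm51581 and Rpl31 had 3 each in WT replicate 1, and the small nucleolar RNA gene Gm24826 had 3 at ZT10, 3 in WT replicate 2 and 4 in ΔhIDR replicate 1. Within 1 Mb of the window, no gene was joined to it in both ΔhIDR libraries.

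The 5 genes whose pattern over the 6 libraries was most like that of Npas2 were Pum3, Pop1, Slco2b1, Irf2 and Cstf1. Likeness was the Euclidean distance between log2 shares of listed PETs, centred per gene, among 8808 genes with 30 or more PETs, and the median distance was 4.55. For these genes it was 0.378, 0.610, 0.614, 0.652 and 0.722. Irf2 had 234 PETs at ZT10 and 10 at ZT22, against 9 and 13 for WT and 12 and 11 for ΔhIDR. The other 4 had 57 to 88 at ZT10 and at most 9 in any other library.

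The loops of the series were checked against markers of liver cells. At ZT10 the 15 hepatocyte genes held 4590 PETs, with all but Serpina1a above 0, while 8 of 9 Kupffer cell markers were at 0 and the ninth had 3 PETs. Sums were 140 for 8 endothelial markers, 29 for 8 stellate, 32 for 6 cholangiocyte and 29 for 7 lymphoid markers. In the other 5 libraries hepatocyte genes held 40 to 96 PETs, Kupffer markers 32 to 86, endothelial 44 to 117 and stellate 25 to 127. The part of this difference in the comparisons with the ZT10 knock-in was not tested.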

How the data were processed

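The authors deposited 1 file per library, with intrachromosomal anchor pairs and their PET counts, raw and without normalization. Per the submitters' processing notes the build is mm10. Aligner, duplicate filter and loop caller are not given in the sources used here. The lowest deposited count is 3, and the shortest distance between anchor centres 7.50 kb. Whether every loop past both limits was listed is not known, so the PETs of an unlisted loop are not known either. Listed PETs (104161 to 320427 per library) are not the sequencing depth. Starts were read as 0-based and are printed from 1. Groups and replicate numbers came from sample titles. Anti-CTCF samples (2) were not used here, and mitochondrial loops were left out of windows and shares.

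The members, gene lists and tests were chosen with earlier results of these data known. Anchors were merged where they overlapped by 1 bp or more. The genome was tiled in windows of 370 kb, a loop counting once per window touched. WT and ΔhIDR were compared with edgeR 4.0.16 (quasi-likelihood, TMM, filterByExpr, Benjamini-Hochberg at 0.05) in R 4.3.3, checked on simulated data, with DESeq2 1.42.0 as an alternative. Other steps used Python 3.11.15 with pandas 2.3.3 and scipy 1.17.1. Named genes were Npas2, genes joined to the window by 10 or more ZT10 PETs or, within 1 Mb, in an AAV library, the 4 leading clock genes and the 5 most alike. Genes at the other ends of weaker ZT10 loops were not named, and the anchors with 9 or more loops were named after their values were seen.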

Additional observations from a re-analysis of the deposited data

How the results depend on the processing

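Shares of ZT10 PETs in promoter loops (48.1% to 51.2%) and in loops touching neither gene nor promoter (45.0% to 46.2%) kept within their counting error under every alternative run for them. PETs of the window moved with the loops admitted. In the order knock-in ZT10, ZT22, WT 1, WT 2, ΔhIDR 1, ΔhIDR 2 they numbered 970, 16, 35, 42, 5 and 20 with both anchors inside, 895, 12, 14, 40, 24 and 28 in loops of 4 or more PETs, and 955, 13, 29, 19, 0 and 3 in wide-anchor loops. The ZT10 over ZT22 ratio was 35.2 with the median window as scale. Over all listed PETs it was 25.1 with both anchors inside and 30.4 with wide anchors. Over the PETs of wide-anchor loops the shares were 35.6 per 10000 at ZT10 and 7.95 at ZT22. Of ZT10 loops with 10 or more PETs, ZT22 also listed 8.70%, WT 1 21.7%, WT 2 13.0%, ΔhIDR 1 0% and ΔhIDR 2 4.35%, against 4.69%, 1.56%, 1.73%, 3.51% and 1.52% of such loops over the genome.

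The log2 difference between WT and ΔhIDR ran from 0.82 to 1.77 over 10 alternatives, with adjusted p of 0.656 and above in edgeR or DESeq2, and from 0.82 to 1.26 when 1 library was left out. Windows called numbered 2 with DESeq2, 0 with both anchors inside, 0 with wide anchors, and 0 to 4 when 1 library was left out (4 without WT replicate 2, 0 without either ΔhIDR library, where the lone library is assumed to vary like the other group). The fit with both anchors inside tested 2135 windows and the wide-anchor fit only 3, against 6754 in the main fit. Their counts of called windows and adjusted p are therefore not comparable with the main fit, and 3 windows are too few for a check. With the replicate number as a block the log2 difference was 1.02 (adjusted p 0.997 in edgeR) with 1 window called. Same-numbered libraries shared deviations with a correlation of 0.0405 over windows. Replicates of the same group correlated at only 0.443 (WT) and 0.395 (ΔhIDR). With counts this noisy, the low value cannot decide whether same-numbered libraries share more than a number. The share of joined pairs at other thresholds and the values per wide-anchor PET, chosen after seeing the data, are given above. Loops of 3 to 6 PETs limit every statement on the 5 libraries other than knock-in ZT10.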

Other observations

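Each ΔhIDR library listed 1 loop of 3 PETs from the flank of Npas2 to a place about 154 Mb away on the same chromosome, near the synaptotagmin gene Syt14. In replicate 1 the loop began at the -128 kb anchor and its partner, chr1:192987416-192987978, overlaps Syt14. In replicate 2 it began at chr1:39079949-39080497, which overlaps no ZT10 anchor, and its partner, chr1:193037246-193037896, overlaps no gene and lies within 5 kb of both Syt14 and the noncoding gene Gm31406. The partner intervals do not overlap each other. These loops were picked out after their values were seen.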
